A study of Mus musculus with 49 samples.

Results

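The genes described here encode the proteins of the mitochondrial ribosome, and were taken as every gene symbol that starts with Mrpl or Mrps followed by a digit. There were 76 such genes among the 22869 gene symbols of the deposited tables, 47 named Mrpl and 29 named Mrps, and all 76 were present in each of the 5 tables. For 7 of them the tables held several transcript rows, and the row with the highest total was used. The symbols mostly follow the large (Mrpl) and small (Mrps) subunit, but Mrps18a and Mrps30 encode proteins of the large subunit, and every count below by Mrpl or Mrps goes by the symbol. Their RNA was measured in 43 libraries of white fat from the inbred mouse strains C57BL/6 and 129S1/SvImJ. Fat from the epididymal depot (eWAT), which is visceral, came from chow-fed mice (5 libraries per strain), from mice on a low fat control diet (D12450B) without rosiglitazone (4 per strain) or with it (4 per strain), and from mice labelled as 12 weeks of the same low fat diet (5 C57BL/6 and 4 129S1/SvImJ). Subcutaneous fat from the inguinal depot (iWAT) carries that 12-week label too (4 libraries per strain). Rosiglitazone is a PPARG agonist used against diabetes. It was mixed into the diet at 36 mg per kg for 2 weeks, from 16 to 18 weeks of age, after low fat diet from 6 weeks of age. Its controls stayed on the low fat diet to 18 weeks. No age is stated for the chow and 12-week mice in the sources used here.

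The mitochondrial ribosome translates the few messenger RNAs of mitochondrial DNA, which encode core subunits of the respiratory chain and of ATP synthase. Its ribosomal RNAs come from mitochondrial DNA, whereas its proteins are encoded in the nucleus, made in the cytosol and imported, so that both genomes must supply each particle. The small subunit reads the codons and the large subunit forms the peptide bonds. In fat, mitochondrial content is known to be higher in brown and beige adipocytes than in white ones, and PPARG agonists are known to raise it.

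The deposited values were whole numbers normalized by the authors, with a floor of 1 and an unknown sequencing depth. Nothing in the labels states that the libraries of a group are different mice, and the p-values here therefore reflect only how far these libraries spread. Several libraries stood apart. Replicate 2 of 129S1/SvImJ on chow had a summed value of 179628 over 10 epididymis markers and replicate 1 had 37207, against at most 133 in the other chow libraries, and replicate 2 had an adipocyte marker sum of only 21507. In iWAT, lymphocyte markers (8 genes) summed to 10322 in 129S1/SvImJ replicate 1, 3854 in its replicate 4 and 4080 in C57BL/6 replicate 4, against 266 to 438 in the other iWAT libraries, and brown and beige markers reached 5010 and 5576 in the replicate 4 of each strain. Replicate 3 of C57BL/6 12-week eWAT held skeletal muscle markers (13415 over 10 genes). Coarser values marked the 4 iWAT libraries of C57BL/6, with 467 to 679 distinct values where the others had 1293 to 1865. In bulk tissue, fewer cells of a type and less RNA per cell cannot be told apart.

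Per kilobase of transcript, the Mrpl gene with the highest mean value over the 43 libraries was Mrpl33, a small protein of the large subunit, at 395 per kb. Mrpl20 followed at 297 and Mrpl30 at 228. Among the Mrps genes, Mrps21 was highest at 380 per kb, followed by Mrps6 at 247 and Mrps18a at 176. These means run over experiments that were normalized separately, so they rank the genes only, and the order differed between groups. In C57BL/6 12-week eWAT, Mrpl20 stood at 429 per kb, above Mrpl33 at 319, and Mrpl54 at 318 was above Mrpl30 at 250.4. At the other end, Mrpl23 stood at 6.02 per kb, with values between 1 and 10 in every library, near the floor. Mrpl47 was at 13.2 and Mrpl19 at 16.7 per kb. Among the Mrps genes, Mrps5 (18.2), Mrps33 (18.8) and Mrps36 (19.4) were lowest per kb. Lengths were those of the longest linked GENCODE transcript (4481 bases for Mrps5), which need not be the one the authors counted. The exons of Mrps6 overlap those of Slc5a3 on the same strand, and shared reads were not examined. Mrps36, which has also been described as a subunit of the 2-oxoglutarate dehydrogenase complex, ran from 2 to 26 over the libraries and passed the test in none of the 11 comparisons. Mrpl23 and Mrps36 were the only members with a mean under 16, so 74 of the 76 would pass a filter at that level.

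The strain difference on the low fat control diet was the one in which most members passed the test. In eWAT of 129S1/SvImJ, 39 of the 76 genes were higher than in C57BL/6 and 1, Mrps12, was lower, by limma on log2(value + 1) with Benjamini-Hochberg adjusted p under 0.05 over all 22869 genes. Of all genes tested, 10% were called higher and 7.5% lower in this comparison, and of the genes with a mean of at least 16, 30.4% were called in either direction. The median difference over the 76 members was 0.44 on the log2 scale, and 73 of them had a positive difference, against a median of 0.01 over all genes. The groups did not overlap for 39 members that lay above in 129S1/SvImJ and 1 below, where 9.91% and 7.66% of all genes did so. Both series took part: 26 of 47 Mrpl genes were called higher (median 0.44), and of the 29 Mrps genes 13 were called higher and 1 lower (median 0.52).

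The summed value of the 76 members showed the same order. It lay between 6453 and 8082 in the 4 C57BL/6 libraries and between 9257 and 9695 in the 4 129S1/SvImJ libraries, so that every 129S1/SvImJ library was above every C57BL/6 library. The sum of the Mrps genes divided by that of the Mrpl genes was 0.517 to 0.528 in C57BL/6 and 0.487 to 0.505 in 129S1/SvImJ. Markers of other cell types moved in the same comparison, and their part in the result was not tested. The summed value of 8 adipocyte markers overlapped (127721 to 147200 in C57BL/6, 127382 to 139198 in 129S1/SvImJ), 2 of the 8 being called higher. Brown and beige markers (6 genes) summed to 70 to 101 in C57BL/6 and 190 to 326 in 129S1/SvImJ, with 4 called higher. Endothelial markers (8 genes) summed to 3875 to 6070 and 2536 to 3136, with 7 called lower.

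**Figure D1:**
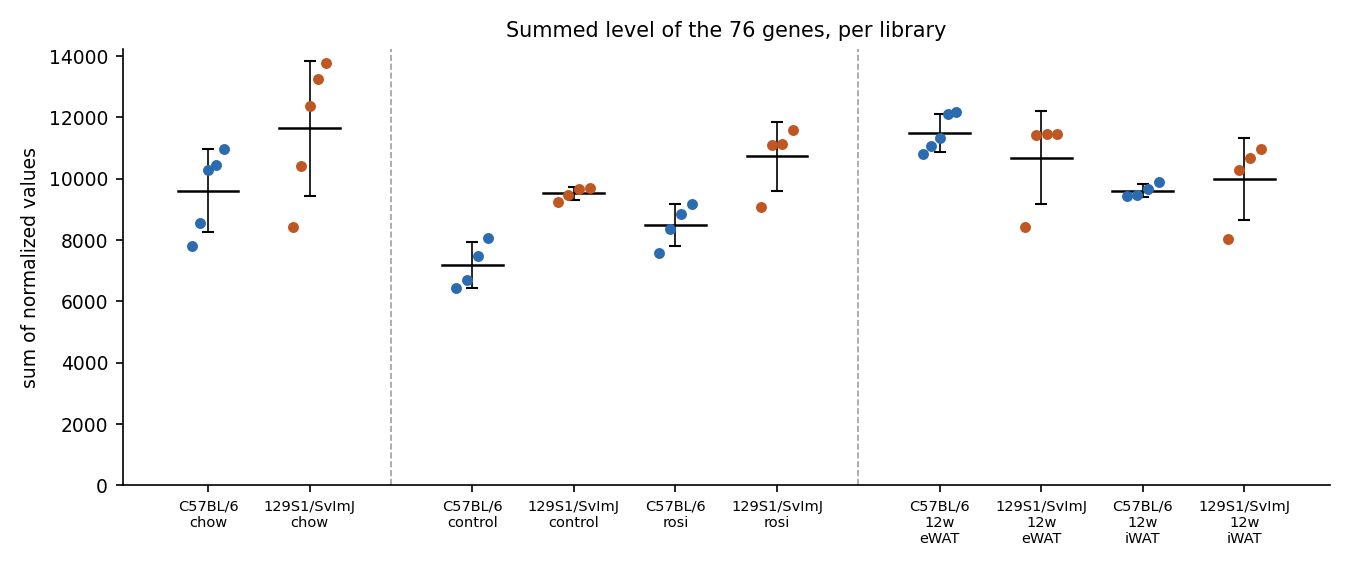
Sum of the normalized values of the 76 mitochondrial ribosomal protein genes in each of the 43 libraries (points; C57BL/6 blue, 129S1/SvImJ orange; black lines mean ± SD; dashed lines separate experiments normalized separately, whose levels are not comparable). On the control diet the 129S1/SvImJ libraries (9257 to 9695) lie above all C57BL/6 libraries (6453 to 8082), and after 12 weeks 1 129S1/SvImJ eWAT library lies at 8431, below the rest of its group.

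Among the called genes, Mrpl12 had the largest difference on the control diet. Mrpl12 forms the flexible stalk of the large subunit that recruits translation factors. Its values were 113, 94, 146 and 169 in C57BL/6 and 307, 195, 236 and 219 in 129S1/SvImJ. The lowest 129S1/SvImJ library was above the highest C57BL/6 library, and the log2 difference was 0.88 ± 0.18 (SE, limma adjusted p = 0.0014). For Mrpl33 the values were 105, 121, 102 and 111 against 171, 217, 224 and 197. These groups were widely apart, with a log2 difference of 0.87 ± 0.12 (limma adjusted p = 5.6e-05). Mrps11, a small subunit protein of the platform region, had 44, 46, 31 and 43 in C57BL/6 and 74, 61, 74 and 79 in 129S1/SvImJ (log2 difference 0.81), with no overlap. Mrpl16 lies near the peptidyl transferase centre. It had 69, 48, 53 and 98 in C57BL/6 and 113, 110, 113 and 109 in 129S1/SvImJ, so that the 129S1/SvImJ libraries were nearly equal and the C57BL/6 libraries spread below them (log2 difference 0.78). Mrpl42 differed by 0.73 and Mrps10 by 0.85, both without overlap. The call of Mrps10 was lost without any one of 3 libraries.

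The 3 genes related to bacterial ribosomal protein bS18 were read separately. Mrps18a, which despite its name sits in the large subunit, was called higher (log2 difference 0.71), although the C57BL/6 libraries were 79, 79, 82 and 166 and the 129S1/SvImJ libraries 156, 166, 153 and 156. One C57BL/6 library thus reached the 129S1/SvImJ level. Mrps18b was also called higher (mean 61.5 ± 4.20 against 41.5 ± 3.11, SD, n = 4 each), and its log2 difference of 0.56 lost the call without any one of 7 of the 8 libraries. Mrps18c had 53, 37, 32 and 48 in C57BL/6 and 57, 46, 60 and 45 in 129S1/SvImJ, which overlap, and did not pass (limma adjusted p = 0.313). The authors' deposited table gave a p under 0.05 (its adjustment is not stated) to 51 members higher and 1 lower in 129S1/SvImJ. How many of all genes had such a p was not computed. Without C57BL/6 replicate 2 the number of members called was 26 in place of 40, and it was 47 without C57BL/6 replicate 4.

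Mrps12 went the other way. It encodes the small subunit protein at the decoding centre, the homologue of the bacterial protein in which streptomycin resistance mutations arise. On the control diet its values were 76, 70, 64 and 62 in C57BL/6 and 42, 40, 34 and 41 in 129S1/SvImJ. All 129S1/SvImJ libraries were lower, with a log2 difference of -0.78 ± 0.16 (limma adjusted p = 0.00168). On rosiglitazone the values were 92, 75, 80 and 80 against 49, 70, 43 and 71, again without overlap (-0.51 ± 0.16, limma adjusted p = 0.0433), although this call was lost without any one of 6 of the 8 libraries. After 12 weeks of low fat diet, eWAT had 151, 147, 170, 131 and 137 in C57BL/6 and 20, 33, 23 and 48 in 129S1/SvImJ. This was the widest separation of any member in any strain comparison, a log2 difference of -2.29 ± 0.25 or 4.88-fold lower (limma adjusted p = 0.00101). The iWAT libraries of the same diet had 88, 61, 132 and 100 against 40, 44, 45 and 42, which do not overlap but did not pass the test (-1.09, limma adjusted p = 0.095). On chow the values were 79, 55, 73, 92 and 50 against 38, 47, 63, 62 and 36, with overlapping groups and a log2 difference of -0.50 (limma adjusted p = 0.309).

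**Figure D2:**
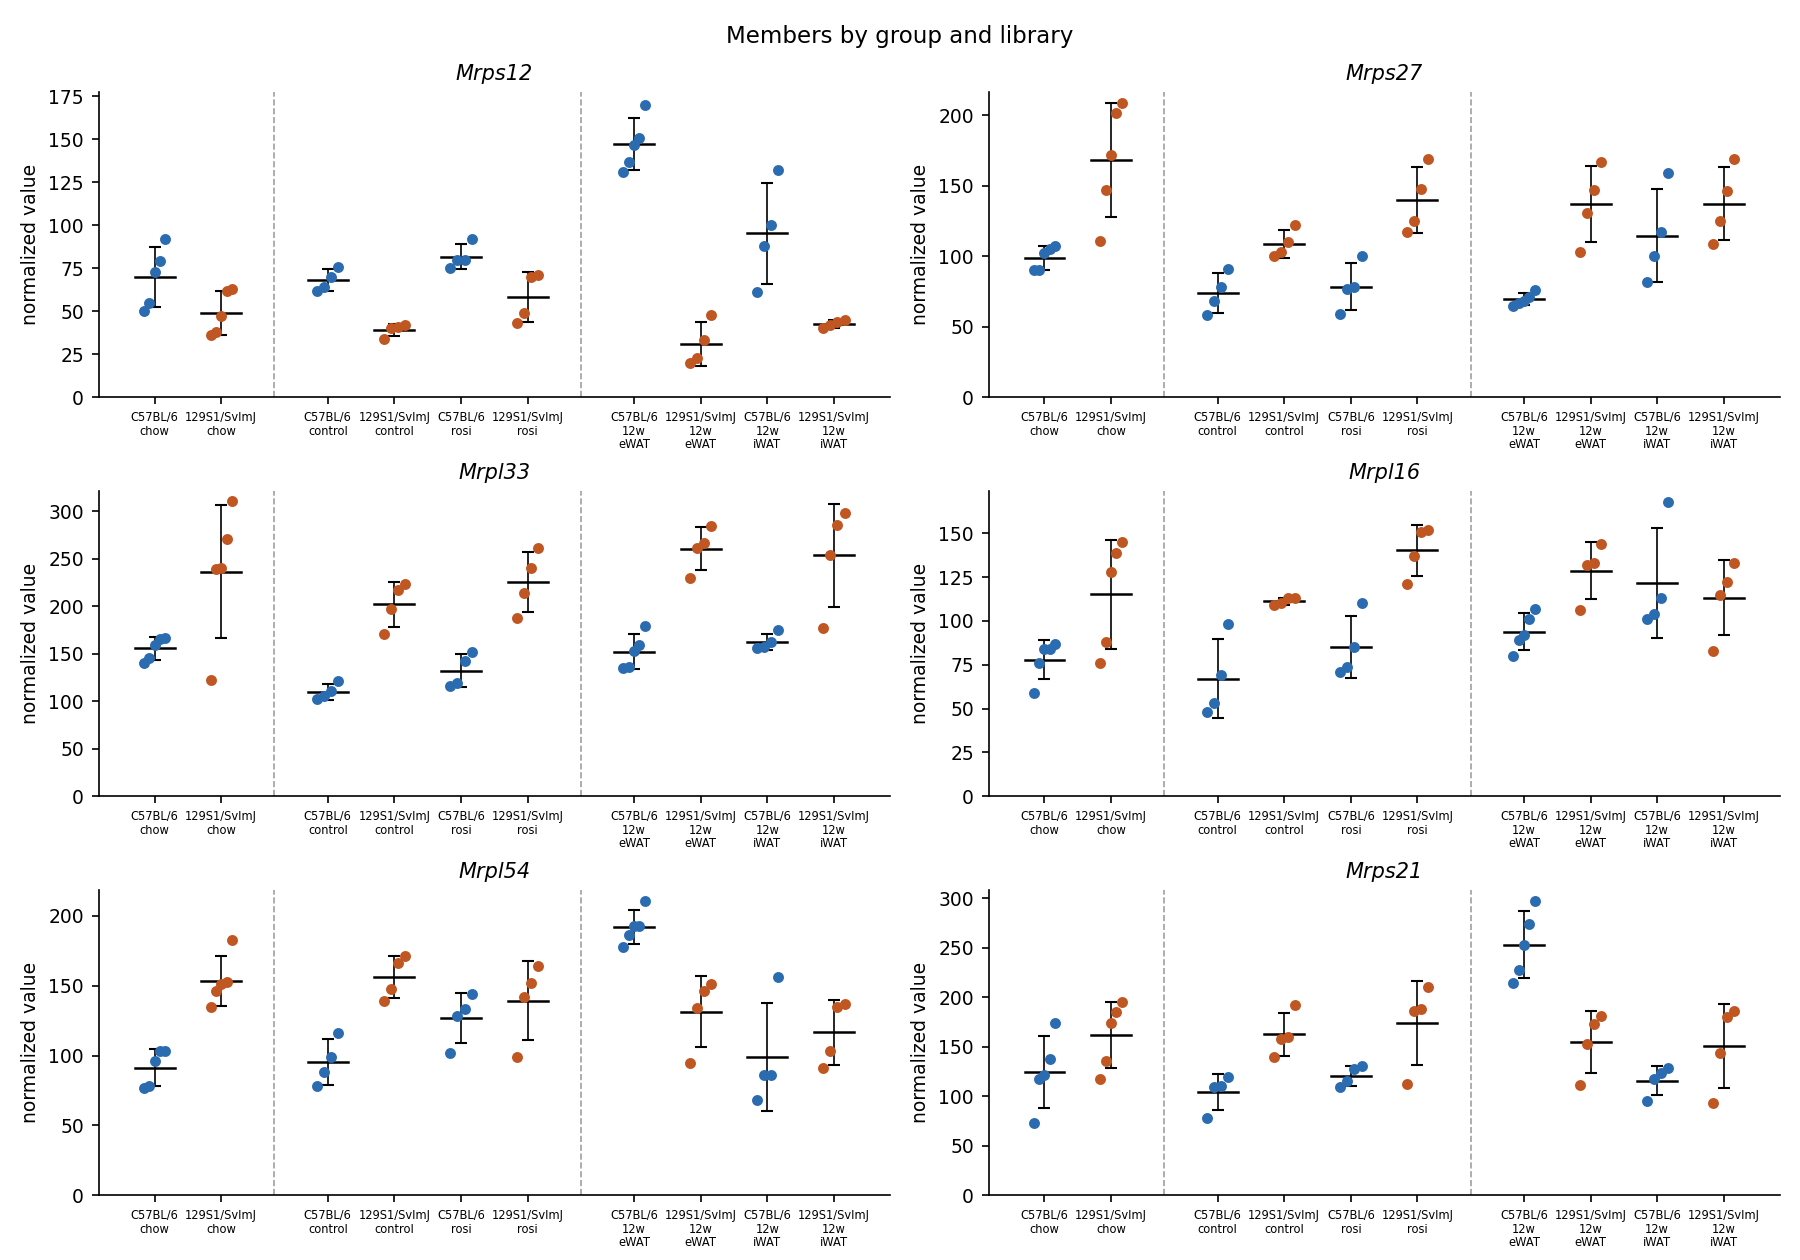
Normalized values of Mrps12, Mrps27, Mrpl33, Mrpl16, Mrpl54 and Mrps21 in each library (1 panel per gene; points are libraries, C57BL/6 blue and 129S1/SvImJ orange; black lines mean ± SD; dashed lines separate experiments normalized separately). Mrps12 is lower in 129S1/SvImJ in every eWAT and iWAT pair of groups by its mean, Mrps27 and Mrpl33 are higher, and Mrpl54 and Mrps21 lie higher in 129S1/SvImJ on the control diet and lower in 12-week eWAT.

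Mrps12 lies head to head with Sars2, the mitochondrial seryl-tRNA synthetase gene, with 172 bases between their starts in the GENCODE annotation, so that the RNA of both starts from 1 short shared stretch. On the control diet Sars2 was higher in 129S1/SvImJ (log2 difference 0.85 ± 0.20, SE, limma adjusted p = 0.00423), while Mrps12 was lower. In 12-week eWAT Sars2 did not pass the test (-0.32 ± 0.28, limma adjusted p = 0.511), while Mrps12 was 4.88-fold lower. In all, 24 members had the start of another gene within 500 bases in the opposite direction, in 23 distinct pairs. One pair joins a gene of each subunit, Mrpl46 and Mrps11, and both were called higher on the control diet (0.69 and 0.81 on the log2 scale). The exons of Mrpl46 and Mrps11 overlap on opposite strands, so whether both values hold the same reads cannot be told here. In another pair Mrpl40, of the large subunit, was higher (0.68) and Hira, a histone chaperone gene, lower (-0.47, limma adjusted p = 0.0135). Mrpl32 and the proteasome gene Psma2 were both higher (0.58 and 0.66). The last 3 pairs were chosen after their values were seen. The exons of 23 members overlap those of another coding gene, 4 of them on the same strand, and the sources used here do not state whether reads were counted by strand.

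Promoters of the members that the results turn on are shown to let these starts be read directly. The sequences are from RefSeq on build GRCm38.p6 and run 5′ to 3′ on the gene's strand, from 250 bases before the start to 50 after it. Capitals mark matches on either strand to NRF1 (GCGCA, any base, then GCGC), the ETS family motif bound by GABP (CCGGAAG), YY1 (AANATGGC) or the cAMP response element CRE (TGACGTCA), none of which overlapped another motif. They carry, in order, ETS and YY1 (Mrps12), NRF1 (Mrpl12), ETS (Mrpl33), ETS and YY1 at 2 places (Mrps27), CRE (Mrpl16), and ETS and YY1 (Mrpl18).
Mrps12, chr7:28741772-28742071, minus strand: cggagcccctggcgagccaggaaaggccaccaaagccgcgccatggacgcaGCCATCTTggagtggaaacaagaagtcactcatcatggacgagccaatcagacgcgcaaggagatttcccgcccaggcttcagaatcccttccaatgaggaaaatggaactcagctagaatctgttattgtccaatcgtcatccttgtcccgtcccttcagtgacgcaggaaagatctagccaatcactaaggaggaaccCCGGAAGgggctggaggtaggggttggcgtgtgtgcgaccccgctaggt
Mrpl12, chr11:120484387-120484686, plus strand: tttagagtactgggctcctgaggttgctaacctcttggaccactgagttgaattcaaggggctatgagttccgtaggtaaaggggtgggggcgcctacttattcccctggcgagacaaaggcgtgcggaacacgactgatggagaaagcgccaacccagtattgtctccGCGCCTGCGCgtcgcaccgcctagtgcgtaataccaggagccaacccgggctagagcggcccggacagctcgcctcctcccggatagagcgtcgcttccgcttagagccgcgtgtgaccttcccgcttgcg
Mrpl33, chr5:31613701-31614000, plus strand: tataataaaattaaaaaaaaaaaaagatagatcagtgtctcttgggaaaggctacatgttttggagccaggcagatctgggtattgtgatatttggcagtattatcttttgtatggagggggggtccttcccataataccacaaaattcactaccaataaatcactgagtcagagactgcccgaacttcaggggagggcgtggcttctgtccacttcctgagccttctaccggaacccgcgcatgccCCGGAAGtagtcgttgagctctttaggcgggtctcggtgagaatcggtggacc
Mrps27, chr13:99344536-99344835, plus strand: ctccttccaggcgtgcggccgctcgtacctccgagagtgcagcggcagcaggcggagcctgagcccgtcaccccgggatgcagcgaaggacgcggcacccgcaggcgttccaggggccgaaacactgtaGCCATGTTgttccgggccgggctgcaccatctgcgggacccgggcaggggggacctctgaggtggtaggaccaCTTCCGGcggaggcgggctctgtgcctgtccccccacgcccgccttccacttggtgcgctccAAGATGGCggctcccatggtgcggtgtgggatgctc
Mrpl16, chr19:11770165-11770464, plus strand: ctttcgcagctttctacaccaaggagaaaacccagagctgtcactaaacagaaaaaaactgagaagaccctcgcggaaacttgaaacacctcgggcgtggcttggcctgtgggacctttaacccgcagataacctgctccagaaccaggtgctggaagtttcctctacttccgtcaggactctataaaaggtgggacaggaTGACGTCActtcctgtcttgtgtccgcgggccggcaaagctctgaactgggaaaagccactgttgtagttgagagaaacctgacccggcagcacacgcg
Mrpl18, chr17:12916042-12916341, minus strand: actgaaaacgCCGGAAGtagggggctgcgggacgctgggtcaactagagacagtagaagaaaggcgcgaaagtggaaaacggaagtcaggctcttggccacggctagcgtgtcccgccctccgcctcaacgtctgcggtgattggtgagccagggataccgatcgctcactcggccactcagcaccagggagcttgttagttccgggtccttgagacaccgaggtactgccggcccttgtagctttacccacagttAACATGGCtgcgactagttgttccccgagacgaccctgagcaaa

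RefSeq promoters were found for 67 of the 76 members. An ETS match was present in 24 of the 67 (35.8%), against 9.93% of all genes with a promoter and 19.1% of those with a mean value of at least 16. The NRF1 match was present in 12 (17.9%, against 5.19% and 11.2%), the YY1 match in 20 (29.9%, against 6.96% and 9.81%) and the CRE match in 2 (2.99%, against 2.03% and 3.49%). At least 1 of ETS and NRF1 was present in 33 members, and both in 3. Of the 68 matches, 56 lay from 100 bases before the start to 50 after it. On the control diet, 15 of the 24 members with an ETS match and 20 of the 43 without one were called (median log2 difference 0.49 and 0.40), and for NRF1 6 of 12 and 29 of 55 were called (0.50 and 0.41). A match is a string of letters and not evidence of binding.

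On chow the difference was smaller in number. In 129S1/SvImJ 4 of the 76 members (5.26%) were called higher and none lower by limma, where 2.39% of all genes were called higher and 2.61% lower. The share of members called in either direction was thus close to that of all genes, and of the genes with a mean of at least 16, 7.77% were called. With limma library weights, which let outlying libraries count for less, 29 members were called in place of 4. For this setting and the libraries left out below, the share of all genes called is not given. These counts thus have no background. With equal weights 15 members had an unadjusted limma p under 0.05. So did 3924 of all 22869 genes and 3430 of the 13585 with a mean of at least 16. This count of members was thus near that background. The median over the members was 0.25 on the log2 scale, against 0.00 over all genes, and 69 of 76 differences were positive. The 4 called genes were also among the 39 called higher on the control diet. Mrpl54 had 103, 78, 96, 103 and 77 in C57BL/6 and 153, 135, 183, 146 and 151 in 129S1/SvImJ. The groups were separate, at 0.75 ± 0.11 (limma adjusted p = 0.00966). Mrps27, a pentatricopeptide repeat protein of the small subunit, had 107, 90, 102, 105 and 90 against 147, 111, 209, 172 and 202. The groups were again separate, although replicate 2 of 129S1/SvImJ at 111 was near the C57BL/6 level (0.73 ± 0.17, limma adjusted p = 0.0475). Mrps11 differed by 0.73 and Mrpl43 by 0.53, both without overlap. The calls of Mrps11 and Mrpl43 were each lost without any one of 8 of the 10 libraries, and that of Mrps27 without any one of 9. The 2 libraries with epididymis markers, replicates 1 and 2 of 129S1/SvImJ, moved the count: without replicate 2 it was 12, without replicate 1 it was 2, and without both, a setting added after the data were seen, it was 21 with a median of 0.50. Without any one of 7 other libraries it was 1 (C57BL/6 replicates 1, 2, 3 and 5, and 129S1/SvImJ replicates 3, 4 and 5).

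With rosiglitazone, 17 members were higher and 1 lower in 129S1/SvImJ than in C57BL/6 eWAT, where limma called 5.45% of all genes higher and 5.23% lower, and 18.2% of those with a mean of at least 16 in either direction. With library weights 30 members were called, and the share of all genes under that setting is not given here. The median difference was 0.33 on the log2 scale, 71 of 76 were positive, and all 47 Mrpl differences were positive. Of these 17, 14 (82.4%) were also called higher on the control diet, which is 35.9% of the 39 there. Mrps27 had 100, 59, 78 and 77 in C57BL/6 and 125, 169, 117 and 148 in 129S1/SvImJ. The groups did not overlap, and the log2 difference of 0.83 ± 0.16 (limma adjusted p = 0.00172) was the largest of the family here. Mrpl33 had 116, 142, 119 and 152 against 261, 240, 188 and 214, also without overlap (0.77 ± 0.12, limma adjusted p = 0.000299). Mrps22, a small subunit protein without a bacterial counterpart, differed by 0.66, Mrpl16 by 0.73 and Mrps9 by 0.59, each without overlap. Mrps18a differed by 0.64, a call lost without any one of 5 of the 8 libraries. The number called was 31 without 129S1/SvImJ replicate 3, 10 without C57BL/6 replicate 2 or 129S1/SvImJ replicate 1, and 11 without C57BL/6 replicate 3 or 129S1/SvImJ replicate 2. Fitted on these 8 libraries alone, 8 members were called. Brown and beige markers summed to 168 to 218 in C57BL/6 and 937 to 1999 in 129S1/SvImJ, and adipocyte markers to 145560 to 163700 and 172609 to 182326; their part in the result was not tested.

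**Figure D3:**
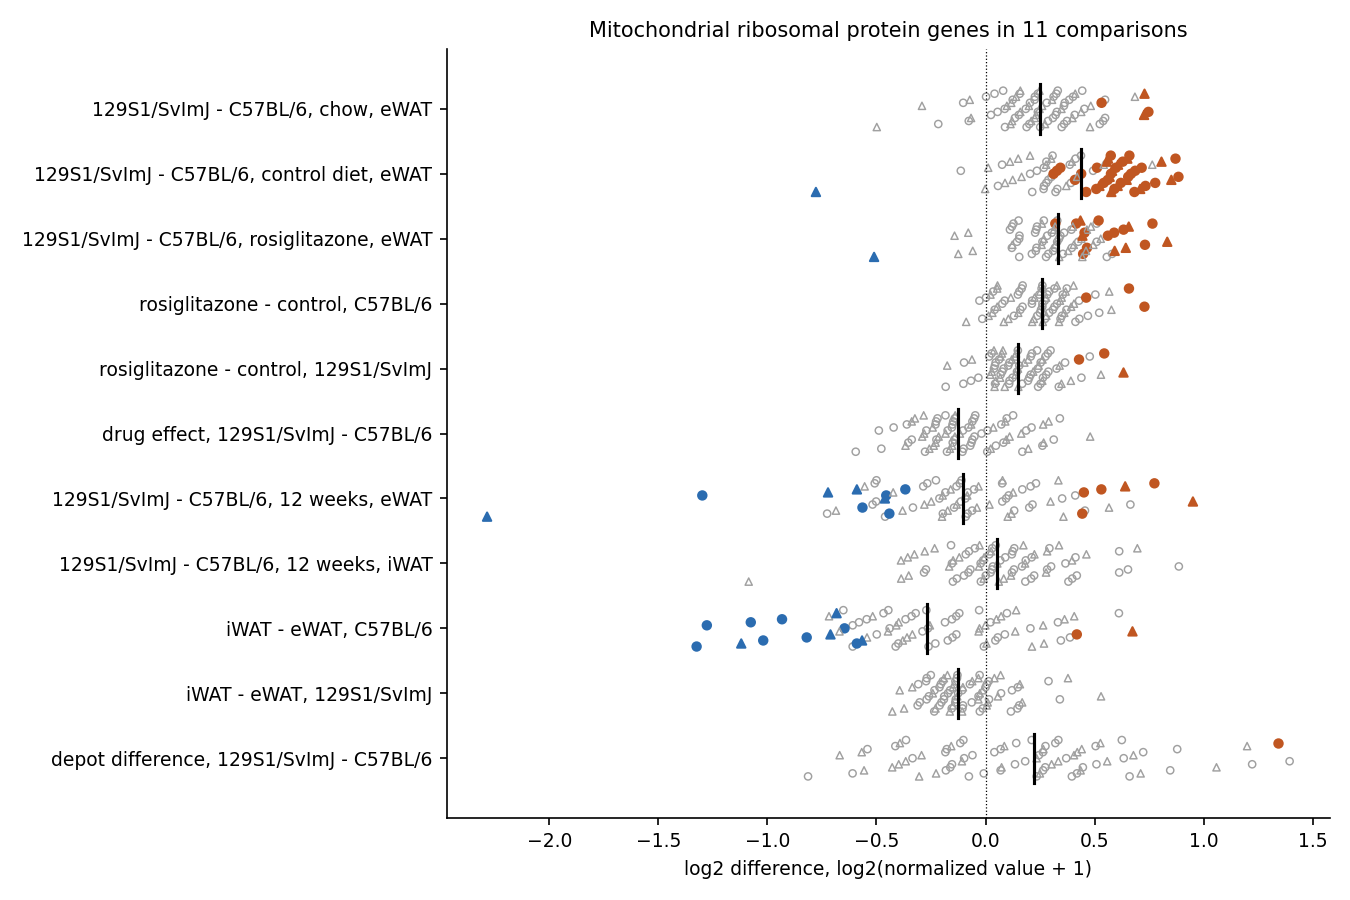
Log2 difference of each of the 76 members (1 point per gene; circles Mrpl, triangles Mrps; filled points passed limma at adjusted p under 0.05, red higher and blue lower; black bars are medians) in the 11 comparisons. The medians lie at 0.44 for strain on the control diet, 0.33 on rosiglitazone and 0.25 on chow, and at -0.10 for strain in 12-week eWAT and -0.27 for iWAT against eWAT in C57BL/6.

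Rosiglitazone itself raised 3 members in C57BL/6 eWAT and lowered none, where 1.53% of all genes were called higher and 0.901% lower. The share of members (3.95%) was near the 4.52% called in either direction among genes with a mean of at least 16. The median of the 76 differences was 0.26 on the log2 scale with 73 positive, against 0.00 over all genes. The groups lay apart without overlap, with the treated above, for 11 members, against 3.5% of all genes. Mrpl18, a protein of the central protuberance of the large subunit, was at 106, 91, 90 and 88 in control libraries and 156, 130, 153 and 155 in treated ones. No treated library was as low as any control (0.66 ± 0.11, limma adjusted p = 0.00122), and the call was kept without any 1 of the 8 libraries. Mrpl12 was at 113, 94, 146 and 169 in controls and 222, 180, 199 and 252 in treated libraries. The highest control and lowest treated library were close (0.73 ± 0.18, limma adjusted p = 0.03), and the call was lost without any one of 5 of the 8 libraries. Mrpl15 was at 75, 91, 80 and 93 and then 98, 124, 119 and 128, without overlap (0.46 ± 0.12, limma adjusted p = 0.0459), and lost its call without any one of 6. The number called was 6 without control replicate 4 and 1 without control replicate 1 or 2 or treated replicate 3 or 4. Brown and beige markers summed to 70 to 101 in controls and 168 to 218 in treated libraries, with 2 of 6 called higher, and 1 of 8 adipocyte and 1 of 8 lymphocyte markers were called higher. None of 7 macrophage markers passed, although all 7 differences were negative (median -0.63), and the part of these markers in the result was not tested.

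In 129S1/SvImJ eWAT rosiglitazone also raised 3 members and lowered none, where 2.96% of all genes were called higher and 2.56% lower, so the share of members (3.95%) was near the background, and below the 10% called among genes with a mean of at least 16. The count was 8 with library weights, and 7 where only genes with a mean of at least 16 were tested. For these 2 settings the share of all genes called is not given here. The median was 0.15 on the log2 scale, with 69 of 76 positive, and 12 members were without overlap and above, against 5.17% of all genes. The 3 genes were not those of C57BL/6. Mrpl45, which holds the ribosome to the inner membrane, was at 119, 110, 114 and 104 in controls and 167, 188, 130 and 174 in treated libraries. Treated libraries were all higher (0.54 ± 0.13, limma adjusted p = 0.0138). Mrpl9 was at 164, 169, 159 and 160 in controls, which were nearly equal, and at 250, 232, 186 and 216 in treated libraries (0.43 ± 0.11, limma adjusted p = 0.0209). Mrps2 was at 65, 90, 61 and 76 and then 91, 112, 100 and 156, where the lowest treated library exceeded the highest control by 1 unit (0.63 ± 0.18, limma adjusted p = 0.0459). These calls were lost without any one of 2, 4 and 6 of the 8 libraries, and none was left without control replicate 4 or without treated replicate 2, with 1 left without control replicate 3. Adipocyte marker sums were 127382 to 139198 without and 172609 to 182326 with the drug, and 5 of 6 brown and beige markers were called higher.

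**Figure D4:**
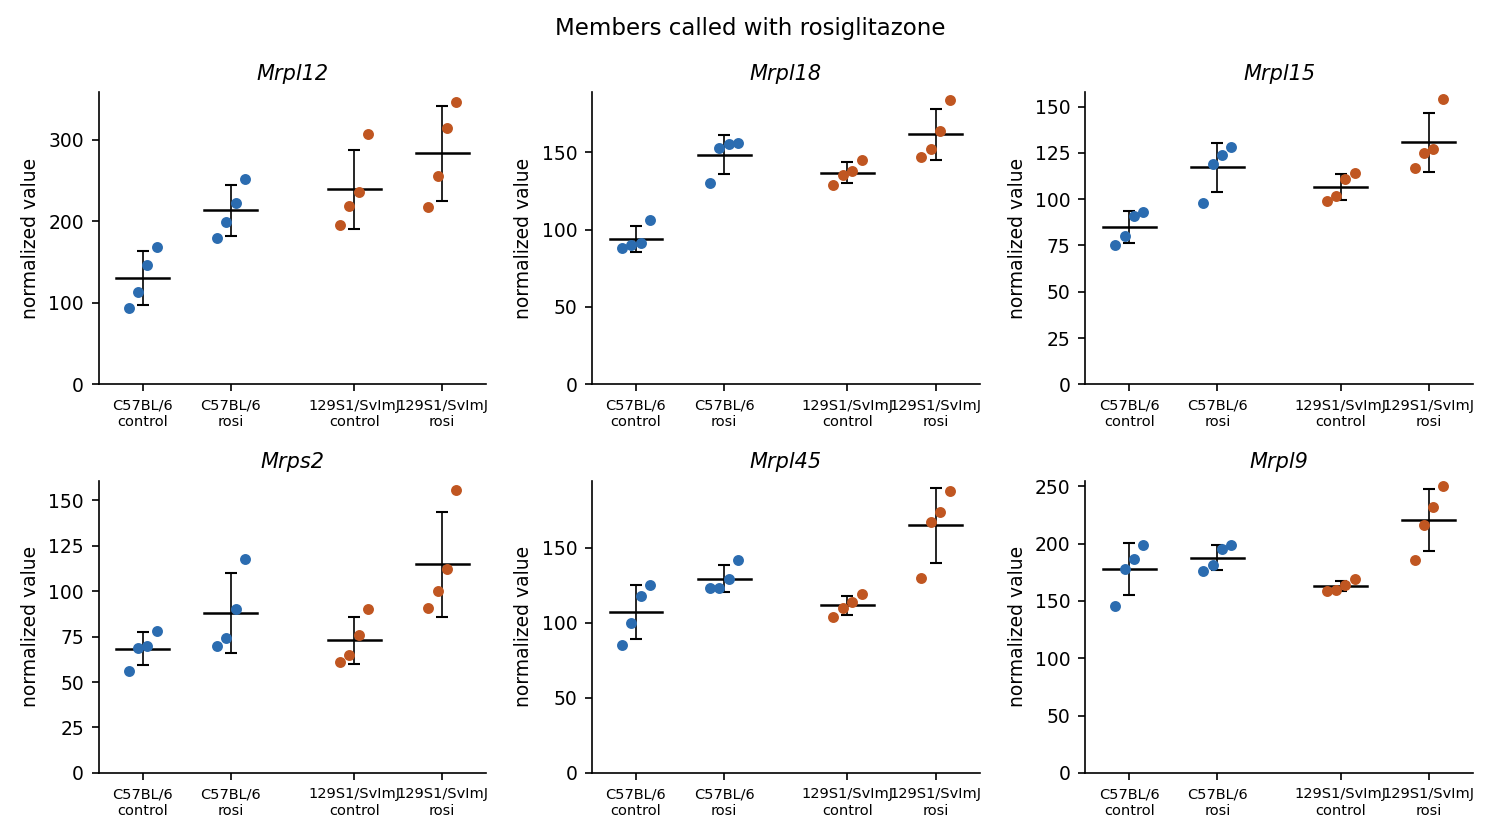
Normalized values of the 6 members called in either strain (Mrpl12, Mrpl18, Mrpl15 for C57BL/6; Mrps2, Mrpl45, Mrpl9 for 129S1/SvImJ) in the 16 eWAT libraries without and with rosiglitazone (points are libraries, C57BL/6 blue and 129S1/SvImJ orange; black lines mean ± SD). Mrpl18 rises from 88 to 106 in C57BL/6 controls to 130 to 156 with the drug, while the 129S1/SvImJ controls already lie at 129 to 145.

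The difference between the strains' drug responses was tested directly, and no member passed. The limma interaction called 0 of 76, where 0.0743% of all genes were called higher and 0.136% lower. The median interaction was -0.13 on the log2 scale, with 24 of 76 positive. The smallest p-values belonged to Mrps9 (0.48, limma adjusted p = 0.301), Mrpl18 (-0.42, limma adjusted p = 0.302) and Mrpl54 (-0.60, limma adjusted p = 0.325). For Mrpl18 the 129S1/SvImJ libraries were 138, 135, 145 and 129 without the drug and 164, 184, 152 and 147 with it, also above without overlap. For Mrpl54 the C57BL/6 libraries were 116, 78, 88 and 99 and then 128, 102, 133 and 144, and the 129S1/SvImJ libraries 166, 139, 148 and 171 and then 164, 152, 99 and 142, so that C57BL/6 libraries were mostly higher on the drug and 1 129S1/SvImJ library was lower. The sums of the 76 members were 7577 to 9168 in treated C57BL/6 and 9082 to 11593 in treated 129S1/SvImJ, which overlap. The strain and drug comparisons share their control libraries, so their values stand side by side here and were not correlated.

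After the 12-week low fat diet, eWAT of the strains differed in both directions. In 129S1/SvImJ 6 members were higher and 9 lower by limma, where 11.6% of all genes were called higher and 10.2% lower (35.5% in either direction among those with a mean of at least 16), so the share of members called (19.7%) was not above that of all genes. The median was -0.10 on the log2 scale, with 29 of 76 positive. Groups were without overlap for 5 members above and 11 below, against 11.1% and 9.93% of all genes. The sums were 10808 to 12167 in C57BL/6 and 8431 to 11472 in 129S1/SvImJ, where replicate 1 held the 8431. The number called was 19 without that library, with 11 higher and 8 lower and a median of 0.02, and it was 8 without C57BL/6 replicate 5 and 9 without C57BL/6 replicate 1. The authors' deposited table gave a p under 0.05 to 5 members higher and 28 lower. How many of all genes had such a p was not computed. Endothelial markers summed to 5502 to 6333 in C57BL/6 and 2004 to 2931 in 129S1/SvImJ, with 8 of 8 called lower, and brown and beige markers to 108 to 168 and 238 to 514; their part in the result was not tested.

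Below Mrps12, the lower genes were led by Mrpl34, a very small large subunit protein. It had 130, 168, 124, 122 and 127 in C57BL/6 and 32, 80, 50 and 64 in 129S1/SvImJ, without overlap (-1.30 ± 0.26, limma adjusted p = 0.0112). Mrps21, the Mrps gene with the highest mean level per kb, had 214, 253, 297, 227 and 274 against 111, 173, 181 and 153. All C57BL/6 libraries were higher (-0.72 ± 0.17, limma adjusted p = 0.0201). Leaving out C57BL/6 replicate 5 ended this call. Mrps7, a small subunit head protein, differed by -0.59, Mrpl54 by -0.56 and Mrps15 by -0.46, and Mrpl32, Mrpl51 and Mrpl11 by -0.46, -0.44 and -0.37, each without overlap. The calls of Mrps7 and Mrpl54 were each lost without any one of 5 of the 9 libraries. Among the higher genes, Mrps27 had 68, 76, 65, 71 and 67 in C57BL/6, a very narrow range, and 103, 131, 167 and 147 in 129S1/SvImJ (0.95 ± 0.13, limma adjusted p = 0.00276). Mrpl33 had 136, 153, 179, 135 and 159 against 230, 267, 261 and 285, without overlap (0.77 ± 0.10, limma adjusted p = 0.00204). Mrpl50 was at 161 to 168 in the 5 C57BL/6 libraries, with a median of 166, and at 217, 233, 256 and 254 in 129S1/SvImJ (0.53 ± 0.05, limma adjusted p = 0.000612). Mrps2 differed by 0.64 and Mrpl19 by 0.44 without overlap, and Mrpl16 by 0.45 with overlapping groups, a call lost without any one of 6 of the 9 libraries.

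The control diet and 12-week eWAT comparisons share no library, and both compare the strains on the low fat diet, so their members can be set against each other. Of the 39 members higher in 129S1/SvImJ on the control diet, 5 (12.8%) were called lower in 12-week eWAT, which is 55.6% of the 9 lower there: Mrpl11, Mrpl32, Mrpl51, Mrpl54 and Mrps21. A further 4 of the 39 (10.3%), which is 66.7% of the 6 higher at 12 weeks, were higher in both: Mrpl16, Mrpl19, Mrpl33 and Mrps27. As 39 of all 76 members were higher on the control diet, neither share lies far from that of the whole family. The matching overlap over all genes was not computed. Mrps12 was lower in both. Mrpl54 shows the change of direction: it was 116, 78, 88 and 99 against 166, 139, 148 and 171 on the control diet, and 211, 193, 186, 178 and 193 against 95, 151, 146 and 134 at 12 weeks. Mrps21 was 109, 110, 78 and 119 against 160, 158, 192 and 140 on the control diet (0.65 ± 0.17, limma adjusted p = 0.00922), and lower at 12 weeks as given above. Each pair of groups was separate, in opposite order. Over the 76 members, the differences had the same sign in 30, with a Pearson correlation of 0.22 (Spearman -0.12), against 0.48 over the 12646 genes with a mean of at least 16. Between chow and the control diet, which also share no library, the sign was the same in 70 of 76 and the Pearson correlation was 0.62 over the members and 0.62 over those genes. These correlations run across genes, which are not independent, and are descriptions only. The control mice were on the low fat diet from 6 to 18 weeks of age, which is as long as the 12-week label. By the labels, length of diet thus does not separate the 2 experiments. The difference between the 2 experiments was not tested, since they were normalized separately, and age, time and experiment cannot be told apart.

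**Figure D5:**
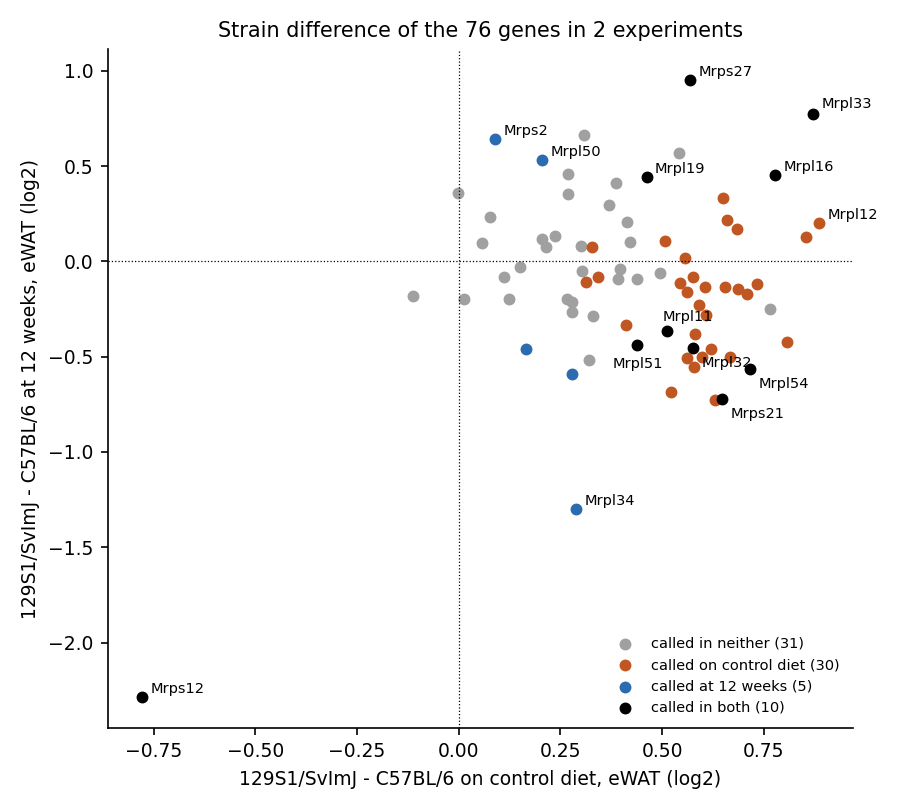
Log2 strain difference of each member in eWAT on the control diet (horizontal axis) against that in 12-week eWAT (vertical axis), coloured by where the gene passed limma at adjusted p under 0.05: in neither comparison (31 genes), on the control diet only (30), at 12 weeks only (5) or in both (10). Mrps12 lies lowest on both axes, and the genes called in both fall on either side of 0 on the vertical axis.

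In iWAT at 12 weeks no member was called between the strains by limma, where 1.13% of all genes were called higher and 0.56% lower. The median was 0.05 on the log2 scale, with 46 of 76 positive, and groups were without overlap for 2 members above and 1, Mrps12, below, against 4.11% and 3.67% of all genes. The authors' deposited table gave a p under 0.05 to 14 members, all higher in 129S1/SvImJ. How many of all genes had such a p was not computed, so the 14 have no background. Sums were 9432 to 9880 in C57BL/6 and 8046 to 10968 in 129S1/SvImJ, which overlap. The 8046 belongs to replicate 1, the library with the lymphocyte marker sum of 10322, which also had a muscle marker sum of 2801 against 104 to 351 in the rest of its group. No member was called without any one of the 8 libraries either, and the part of these markers was not tested. Mrps27 had 82, 117, 159 and 100 against 125, 146, 109 and 169, and Mrpl33 had 156, 157, 175 and 162 against 177, 286, 298 and 254, where only Mrpl33 was separate. The ratio of Mrps to Mrpl sums was 0.519, 0.616, 0.619 and 0.529 in the coarse C57BL/6 iWAT libraries. In the 129S1/SvImJ iWAT libraries it ran from 0.501 to 0.537, so the groups overlap.

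Between depots, C57BL/6 iWAT had 12 members lower than eWAT and 2 higher by limma, where 7.81% of all genes were called lower and 5.27% higher. The share of members called (18.4%) was near the 19.1% among genes with a mean of at least 16. The median was -0.27 on the log2 scale, with 22 of 76 positive, and 19 members were without overlap and below, 3 above, against 9.15% and 6.53% of all genes. Of the 12, 8 were Mrpl and 4 Mrps genes. Mrpl41 had 191, 241, 272, 203 and 206 in eWAT and 82, 101, 68 and 104 in iWAT. Every iWAT library was lower, by -1.32 ± 0.20 on the log2 scale (limma adjusted p = 0.000771). Mrps21 fell from the eWAT values given above to 95, 117, 123 and 128 (-1.12 ± 0.20, limma adjusted p = 0.00251). Mrpl54 was at 156, 86, 68 and 86 in iWAT (-1.02), Mrpl34 at 69, 36, 95 and 65 (-1.08) and Mrpl11, a protein of the factor-binding region, at 108, 134, 141 and 114 (-0.93), each below every eWAT library. Mrpl21 differed by -1.28 and Mrps18b by -0.71, calls lost without any one of 4 of the 9 libraries. The 2 higher genes were Mrps27 (0.67) and Mrpl50 (0.42), without overlap, and their calls were lost without any one of 5 and 8 of the 9 libraries. The number called was 9 without C57BL/6 eWAT replicate 1, 3 or 5. Mesothelial markers, which belong to the visceral surface, were lower in iWAT for 6 of 6 genes. Of 8 markers each, 3 endothelial and 2 adipocyte markers were called lower, and of 6 each, 3 progenitor and 2 brown and beige markers were called higher. The iWAT libraries of this strain were the coarse ones; their part in the result was not tested.

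In 129S1/SvImJ no member was called between iWAT and eWAT by limma, where 0.525% of all genes were called higher and 1.19% lower. The median was -0.13 on the log2 scale. The test of the difference between the strains' depot effects called 1 member higher, Mrpl41, where 1.43% of all genes were called higher and 1.7% lower. The share of members called was thus not above that of all genes. The coarse iWAT libraries of C57BL/6 enter this test. Mrpl41 had 84, 145, 170 and 151 in eWAT and 108, 152, 147 and 135 in iWAT of 129S1/SvImJ, which overlap, in contrast to the separate C57BL/6 groups above. The difference of the 2 effects was 1.34 ± 0.29 on the log2 scale (limma adjusted p = 0.0263), and it was kept without any 1 of the 17 libraries, at 1.12 to 1.46. Mrpl11 (0.66, limma adjusted p = 0.0526) and Mrpl4 (0.88, limma adjusted p = 0.0652) came next. The number called was 4 without 129S1/SvImJ iWAT replicate 1, 3 without C57BL/6 iWAT replicate 1 or 3, and 2 without C57BL/6 iWAT replicate 2 or 129S1/SvImJ eWAT replicate 4.

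Over the 11 comparisons, 53 members were called at least once and 23 never, and 9 were called in both directions. The matching counts over all genes were not computed. The 9 also join unlike comparisons. For Mrpl4, Mrpl21, Mrpl41 and Mrps18b the only lower call was that of iWAT against eWAT in C57BL/6. Mrps27 was called in 5 comparisons, more than any other member, and was higher in each: in 129S1/SvImJ on chow, control diet, rosiglitazone and in 12-week eWAT, and in C57BL/6 iWAT against eWAT. Mrpl54 was called in 4, higher on chow and control diet and lower in 12-week eWAT and in C57BL/6 iWAT. Some of these comparisons share libraries, so their calls are not separate. The strain comparison in 12-week eWAT and the C57BL/6 depot comparison use the same 5 C57BL/6 eWAT libraries. In these, Mrps27 ran from 65 to 76 and Mrpl54 from 178 to 211. The Mrps27 calls on chow and between depots were lost without any one of 9 and 5 libraries.

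Other parts of the mitochondrial translation system were read from lists of the same pathway. On the control diet 17.5% of all genes were called in either direction and 30.4% of those with a mean of at least 16. In 12-week eWAT these shares were 21.7% and 35.5%. Most counts of this and the next paragraph are near or under the shares of genes with a mean of at least 16. On the control diet 13.3% of the translation factors, 20.8% of the assembly genes and 35% of the tRNA synthetases were called. The shares were 5% for mitochondrial DNA transcription and RNA processing and 27.3% for the regulators. On this diet only the ribosome proteins named outside the 2 series, at 62.5%, were well above. In 12-week eWAT the regulators, given in the next paragraph, were called more often than the 35.5%. Of 8 mitochondrial ribosome proteins named outside the Mrpl and Mrps series, 5 were higher in 129S1/SvImJ on the control diet and 0 lower. They include Aurkaip1 (0.72, limma adjusted p = 0.000106) and Dap3, a GTP-binding protein of the small subunit (0.46, 283.8 ± 12.3 against 207.0 ± 29.8, SD, n = 4 each, limma adjusted p = 0.00409). In 12-week eWAT 0 were higher and 1 lower, Gadd45gip1 (-0.52). Of 20 mitochondrial tRNA synthetases and related genes, 7 were higher and 0 lower on the control diet, among them Ears2 (1.07) and Pet112l (0.78). In 12-week eWAT 3 were higher and 3 lower, Vars2 among the lower (-0.99), which is 30% of the list. Of 15 translation factors and membrane insertion genes, 2 were higher on the control diet, Gfm1 (0.50), an elongation factor, and Mtif2 (0.39), an initiation factor, and 3 were higher in 12-week eWAT, Mtif2 among them (0.50). None of the genes in these 3 lists passed the test of strain by rosiglitazone.

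Of 24 ribosome assembly and rRNA modification genes, 5 were higher and 0 lower on the control diet, and 6 higher and 1 lower in 12-week eWAT. Ngrn, which is needed for the mitochondrial large ribosomal RNA, was higher in 129S1/SvImJ on chow (0.64), control diet (0.74), rosiglitazone (0.87) and in 12-week eWAT (0.87). Tfb1m, the methyltransferase of the small ribosomal RNA, was higher on the control diet (0.80) and in 12-week eWAT (0.92), and Rbfa, an assembly factor of the small subunit, was lower in 12-week eWAT (-0.95). Of 20 genes of mitochondrial DNA transcription and RNA processing, 1 was higher on the control diet, and 2 were higher and 4 lower in 12-week eWAT, with Tfam, which packages mitochondrial DNA, higher (0.75) and Tfb2m, a transcription initiation factor, lower (-0.60). Of 11 regulators of nuclear genes for mitochondria, 1 was higher and 2 lower on the control diet: Pparg was higher (0.35), and Pprc1 (-0.67) and Yy1 (-0.34) were lower. In 12-week eWAT 4 were higher, led by Ppargc1a (1.10) and Ppara (0.92), and 2 were lower, Nrf1 (-0.60) and Esrra (-0.74). Rosiglitazone raised Ppargc1b in both strains (0.99 in C57BL/6 with overlapping groups, 0.86 in 129S1/SvImJ), and in 129S1/SvImJ raised Ppara (1.46) and lowered Pparg (-0.49).

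The respiratory chain and the cytosolic ribosome serve for comparison. Of 76 respiratory chain and ATP synthase genes, 54 were higher and 2 lower on the control diet (median 0.51 on the log2 scale), 51 and 3 on rosiglitazone (0.49), and 6 and 7 in 12-week eWAT. Of all genes, 10% were higher and 7.5% lower on the control diet, 5.45% and 5.23% on rosiglitazone, and 11.6% and 10.2% in 12-week eWAT. Rosiglitazone raised 14 of the 76 respiratory genes in C57BL/6 and 22 in 129S1/SvImJ and lowered 0 in either. It raised 3 mitochondrial ribosomal protein genes in each strain. Over all genes it raised 1.53% and 2.96% and lowered 0.901% and 2.56%. In every library the median log2 value was higher for the respiratory genes (7.957 against 6.547 in C57BL/6 control replicate 1). These counts thus do not compare sets of equal level. Of 80 cytosolic ribosomal protein genes, 26 were higher and 5 lower on the control diet (0.37), 4 higher and 6 lower on rosiglitazone, and rosiglitazone lowered 11 and raised 0 in 129S1/SvImJ (median -0.27), where the mitochondrial set had a median of 0.15. The differences between these sets were not tested.

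Transcript length and base composition moved with some of the differences. On the control diet the Pearson correlation of the log2 difference with log2 transcript length was -0.27 over the 76 members and -0.28 over 12441 genes with a mean of at least 16. Above 1000 bases the median difference was 0.40 over 51 members and 0.02 over such genes, and up to 1000 bases 0.52 over 25 members and 0.40 over such genes. In 12-week eWAT the correlation with GC content was -0.37 over the members and -0.33 over those genes. These are descriptions across genes, and the part of length or composition in the results was not tested.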

How the data were processed

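RNA of white fat was extracted with Trizol and RNeasy columns, made into TruSeq libraries and sequenced on an Illumina Genome Analyzer, per the labels' protocols. The submitters' processing notes name HOMER and mouse build mm9, and no build of 129S1/SvImJ. How reads were counted, normalized and annotated is not stated in the sources used here. Each deposited table gives a score per transcript and library, a whole number with a floor of 1 that the authors had already normalized. Library totals were nearly equal within an experiment (5537632 to 5542536 in the drug experiment) and the top values identical, so these are not raw counts, depth is unknown and no counting interval was computed. Beside these stand a log2 fold change computed by the authors, its sign turned here where needed to read 129S1/SvImJ over C57BL/6, and a p-value from the authors, for which neither program nor adjustment is stated. The 8 control diet libraries stand in both drug tables with identical values and were used once. Chow libraries were normalized apart from the others. Of 49 samples, 5 F1 libraries and 1 GRO-seq sample were not used here. 0 columns of per-sample values were left unmapped.

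Differences were fitted on log2(value + 1) in R 4.3.3 using limma 3.58.1, with 1 mean per group, eBayes with trend and robust settings and Benjamini-Hochberg adjustment over 22869 genes (two-sided, called under 0.05), after the procedure was tested on simulated data. Fold changes on this scale understate the change of low genes. The drug experiment was fitted in 1 model of its 16 libraries, the depot comparisons in 1 model of 17, and the other strain comparisons on their own libraries. Replicate numbers are shared between groups in the labels, but correlations of same-numbered libraries ran from -0.499 to 0.603 and in no comparison did every pair exceed 0.1, so no block was used. The members, the pathway and marker lists and the tests were chosen with earlier results of these data known. Members were named by rule: up to 6 of the largest called differences in each direction without overlap, those called against the majority, up to 3 with the smallest p in an interaction, the 3 highest and lowest per kb among Mrpl and among Mrps genes, those called most often, and Mrpl12, Mrps12, Mrps18a, Mrps18b, Mrps18c, Mrps36 and Dap3. Up to 3 genes per pathway list and comparison were named by smallest p, and genes named outside these rules were chosen after their values were seen. Transcript lengths, starts and exons are from GENCODE vM21 and promoters from RefSeq on GRCm38.p6, joined by symbol or transcript and used for no coordinate of the mm9 tables. Alternatives were a pseudocount of 16, a mean of at least 16, no trend or robust settings, median centring, library weights, only the groups compared, the mean of transcript rows, a replicate block and leaving out each library. Of the genes these rules name, 1 is not reported here.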

Additional observations from a re-analysis of the deposited data

Results flagged for a closer look

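Among 300 groups of 4 or 5 libraries examined for named members and for sums, 18 (6%) held a library that lay far from the others by Dixon's criterion, where chance gives about 1 in 20. In 129S1/SvImJ 12-week eWAT, replicate 1 was the low library for the sum of the 76 members (8431, next 11413), for Mrpl12 (127, next 236) and for Mrps7 (217, next 329). In 129S1/SvImJ iWAT, replicate 1 was low for Mrpl12 (183, next 240), Mrps18a (114, next 159) and Mrps2 (78, next 103). This library had a lymphocyte marker sum of 10322 and a muscle marker sum of 2801. In 129S1/SvImJ on chow, replicate 2 was low for Mrps18b (44, next 79) and for the ratio of Mrps to Mrpl sums (0.472, next 0.504), and replicate 1 was low for Mrpl41 (126, next 172). These are the 2 chow libraries with epididymis markers. Mrpl37, which enters the Mrpl sum but was not examined singly here, stood at 630 in replicate 2. In the rest of its group it was at 134, 194, 205 and 186. The part of Mrpl37 in the low ratio was not tested.

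Among C57BL/6 libraries on the control diet, Mrpl18 was high in replicate 1 (106, next 91), Mrpl50 was high (166, next 132) and Mrpl41 low (71, next 94) in replicate 3, and Mrps18a was high in replicate 4 (166, next 82). On rosiglitazone, C57BL/6 replicate 2 was low for Mrpl18 (130, next 153) and Mrps11 (46, next 57), and 129S1/SvImJ replicate 3 was low for Mrpl11 (145, next 199). In C57BL/6 12-week eWAT, Mrpl34 was high in replicate 2 (168, next 130) and Mrps11 was high in replicate 3 (105, next 82), the library with muscle markers.

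The depot effect of Mrpl41 differed between the strains, by 1.34 on the log2 scale in the limma interaction (adjusted p = 0.0263).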

How the results depend on the processing

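Without each library in turn, the number of members called ran from 1 to 12 for strain on chow (4 with all libraries), 26 to 47 on the control diet (40), 10 to 31 on rosiglitazone (18), 8 to 19 in 12-week eWAT (15) and 0 to 0 in iWAT (0). It ran from 1 to 6 for rosiglitazone in C57BL/6 (3), 0 to 3 in 129S1/SvImJ (3), 0 to 0 for strain by rosiglitazone (0), 9 to 17 for depot in C57BL/6 (14), 0 to 0 in 129S1/SvImJ (0) and 1 to 4 for strain by depot (1). With library weights it was 29 on chow, 30 for strain on rosiglitazone, 8 for rosiglitazone in 129S1/SvImJ, 1 in iWAT and 3 for strain by depot. With genes of a mean of at least 16 it was 7 for rosiglitazone in 129S1/SvImJ, 28 in 12-week eWAT (12 higher, 16 lower) and 5 for strain by depot. Fitted on only the groups compared, it was 8 for strain on rosiglitazone and 1 for rosiglitazone in C57BL/6. Without trend or robust settings it was 2 for strain by depot, and with median centring also 2. On chow, leaving out 129S1/SvImJ replicates 1 and 2 together, chosen after seeing the data, gave 21. With the replicate block, which rests on a shared number only, it was 0 on chow, 3 in 12-week eWAT (3 higher, 0 lower), 3 for strain by depot and 39 on the control diet. The cause of these changes was not tested. Shares of all genes called under these settings are not given here, so these counts have no background. Of 416 values of named members under the other settings, 373 kept their direction and side of the threshold, 37 lost the call, 6 gained it and 0 reversed. Of 48 called values, 28 kept the call without any one library. Depth is unknown, so what it limits cannot be stated.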
